A study of Mus musculus with 9 samples.

Results

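The tibial shafts of mice 7 days after weaning were compared with those of virgin mice, across 45101 probe sets of Affymetrix mouse expression arrays. The comparison took 6 of the 9 arrays of the series, the 3 titled post-lactation and the 3 titled virgin. The other 3, from lactating mice, only helped the fit estimate the spread and the offsets between sets of arrays apparently processed together. All groups were CD-1 wild-type mice of 16 to 18 weeks. Dams nursed litters adjusted to 8 to 13 pups, and the post-lactation dams lost their pups on lactation day 12 and were killed on day 7 after that forced weaning. Virgin mice of the same age were the controls, and lactating mice were killed on lactation day 12. Each shaft was cleared of periosteum and marrow, stripped of surface cells by repeated collagenase, trypsin and EDTA digestion, and powdered for RNA. The post-lactation arrays carry the word virgin in their source field, against their titles, and the titles were used. One extraction sentence names femurs, where the other fields name tibiae. Whether the arrays hold RNA of different mice is not stated, and p-values therefore measure the spread between these arrays, which may be technical.

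Lactation draws calcium from the maternal skeleton, and the bone lost is largely rebuilt after weaning. Osteocytes, the cells buried in bone matrix, can remove mineral and matrix from the walls of their own lacunae with enzymes otherwise typical of osteoclasts. The stated purpose of the series was to find genes of that remodelling, and the comparison with virgin mice asks how far the tissue still differs from its state before pregnancy once nursing has ended. Developing red cells form in the marrow, where maturing precursors load their membrane with transport and blood group proteins and make heme in a chain of enzymes. Early B lymphocytes also form in marrow, and rearrange their antibody genes there.

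By exactly tied values and array medians, the 9 arrays fell into 3 sets that appear to have been processed apart. Each set held 1 array of every group. The median log2 signal of an array differed between sets, from 4.32 in set 1 to 4.82 in set 2, and by at most a few hundredths inside a set. Differences between the paired arrays were larger in set 1, where the median absolute difference over genes was 0.25, than in sets 2 and 3, where it was 0.05 and 0.06. Set 1 also had far fewer exactly tied values, and with which arrays it was processed is less certain. Set 1 paired virgin 1 with post-lactation 1, set 2 paired virgin 2 with post-lactation 3, and set 3 paired virgin 3 with post-lactation 2. The difference is given as post-lactation minus virgin, with the set as a block, and also within each set. Whether the groups of a gene overlap was judged on its values across sets, without correcting for the offsets between sets. Genes of osteocytes were present as the label says: Dmp1, a matrix protein of osteocytes, read 11.90 to 13.88 in the virgin arrays and 13.16 to 14.08 in the post-lactation arrays. Genes of marrow cells were present as well, among them S100a8 of neutrophils with a mean of 14.25 over the 9 arrays. In such bulk RNA, fewer cells of a type and less RNA per cell cannot be told apart. Virgin 1 stood apart from the other virgin arrays. Over 28 osteocyte genes the mean signal exceeded the array median by 2.77 log2 units on virgin 1, against 3.98 and 4.47 on virgin 2 and 3. Over 17 neutrophil genes the excess was 7.56 on virgin 1, against 6.85 and 6.60.

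After weaning nearly all called changes were falls. At the level of genes the 2 largest of these falls were in Rhag and Kel, genes of the red cell membrane. Of 18194 genes, 37 (0.203%) passed a Benjamini-Hochberg adjusted p under 0.05 in limma: 35 (0.192%) fell and 2 (0.011%) rose. At the level of probe sets 52 of 45101 (0.115%) passed, 49 lower (0.109%) and 3 higher (0.00665%), and all 52 had 1 sign in all 3 sets. Among the 52 were 5 that name no gene or several, with differences from -4.08 to -2.42. Virgin and post-lactation arrays did not overlap in 485 genes (2.67%), 213 of them higher (1.17%) and 272 lower (1.49%) after weaning. Of the 35 genes that fell, 11 belonged to the lists of red cell membrane or heme genes, and 23 of the 37 called genes were in no list. The calls are few and sit close to the threshold, with adjusted p from 0.00939 to 0.048. They rest on all the arrays: 0 probe sets passed without virgin 1, without virgin 2 or without post-lactation 1. Without virgin 3, post-lactation 2 and post-lactation 3, 6, 17 and 13 passed, of which 5, 9 and 9 were among the 52. None passed in a fit of the 6 arrays alone either, where 1912 had an unadjusted p under 0.05. All 37 genes kept their direction in each of these fits, but their 1 sign in all 3 sets left little room for a reversal.

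**Figure D1:**
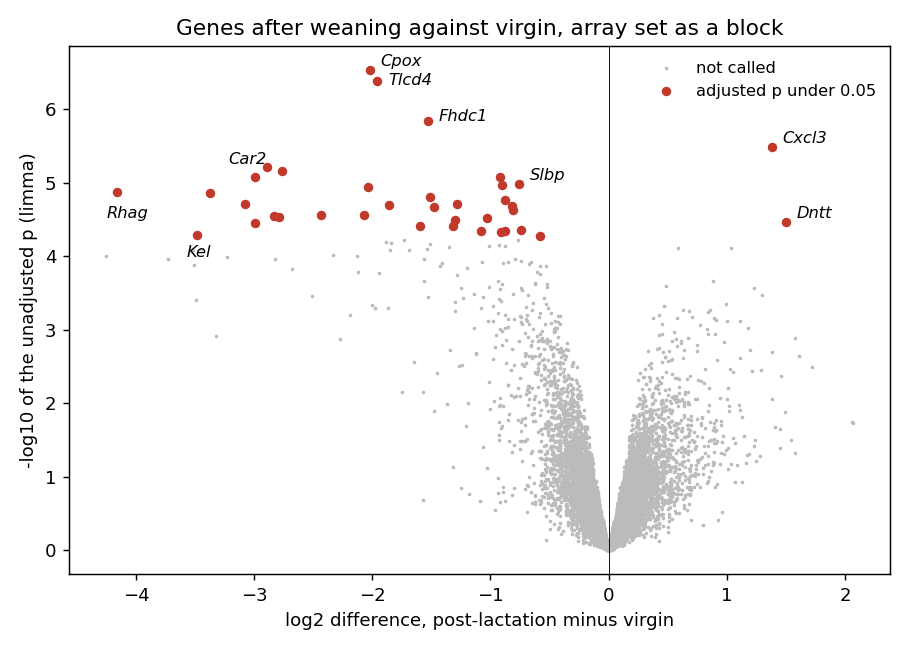
Each point is 1 of 18194 genes, with the log2 difference of post-lactation minus virgin on the horizontal axis and the negative log10 of limma's unadjusted p on the vertical axis. The 37 genes with an adjusted p under 0.05 are red, 35 of them left of 0, from Rhag at -4.16 to Lig1 at -0.58, and 2 right of it, Cxcl3 at 1.38 and Dntt at 1.50.

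Genes of the red cell surface were among those that fell most. Rhag, which encodes the Rh-associated glycoprotein of the red cell membrane, read 7.83, 8.06 and 7.11 in virgin 1, 2 and 3 and 3.30, 4.02 and 3.20 in post-lactation 1, 2 and 3. The groups lay far apart, with a difference of -4.16 ± 0.34 (SE, adjusted p = 0.039). The post-lactation mean of 3.51 ± 0.44 (SD, n = 3) is below 3.97, the 40th percentile of probe set means, which is taken here as the level under which a signal is dim. Against that level the drop in Rhag was at least 13.0-fold. Kel, which carries the Kell blood group, read 7.37, 8.00 and 6.69 in the virgin arrays and 4.43, 3.77 and 3.42 in the post-lactation arrays. The groups again did not overlap, and Kel fell by at least 10.4-fold (difference -3.48 ± 0.35, adjusted p = 0.0464). Ermap, a membrane protein of erythroid cells, read 8.06, 9.40 and 8.23 against 5.09, 5.97 and 5.96. Every virgin array lay above every post-lactation array, and Ermap fell 7.41-fold (-2.89 ± 0.20, adjusted p = 0.0372).

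The same direction ran through the list of red cell membrane, globin and related genes. Of 33 written, 23 were measured, of which 22 had a mean over the dim level. All 23 had a negative difference, 7 (30.4%) were called lower, against 0.192% of all genes, and 20 (87.0%) were lower in all 3 sets, against 8.15% of all genes and 10.8% of genes over the dim level. The list's median difference was -2.82, or -2.66, -3.44 and -1.98 in sets 1, 2 and 3, beside 0.00 over all genes. Without virgin 1 the median was -2.66. The mean signal of the list exceeded the array median by 3.47, 3.80 and 3.00 on virgin 1, 2 and 3 and by 1.21, 1.15 and 0.93 on post-lactation 1, 2 and 3. How much marrow the shafts still held is not stated, and its part in these falls was not tested. Rhd, the carrier of the Rh antigen (-2.99, adjusted p = 0.0421), and Tspan33, a tetraspanin of erythroid precursors (-3.08, adjusted p = 0.0402), also fell. So did Icam4, an adhesion molecule of red cells, which read 6.41, 7.54 and 6.66 in the virgin arrays and 4.03, 4.01 and 4.07 after weaning. Icam4 was close to the dim level on every post-lactation array (-2.83 ± 0.26, adjusted p = 0.0403). Prdx2, an abundant antioxidant enzyme of red cells, fell by 1.48 (adjusted p = 0.0402) and was named after its value was seen, as were the next genes. The largest difference of any gene belonged to Slc4a1, the band 3 anion exchanger, at -4.25 ± 0.48, with an adjusted p of 0.0568 that missed the threshold. Hemgn, a nuclear protein of erythroid cells, had a difference of -3.73 and the same adjusted p. The probe set of Hba-a1 was dim in both groups, at means of 3.45 and 3.44, so it holds no measure of alpha globin, and other alpha globin probe sets name several genes and were left out.

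**Figure D2:**
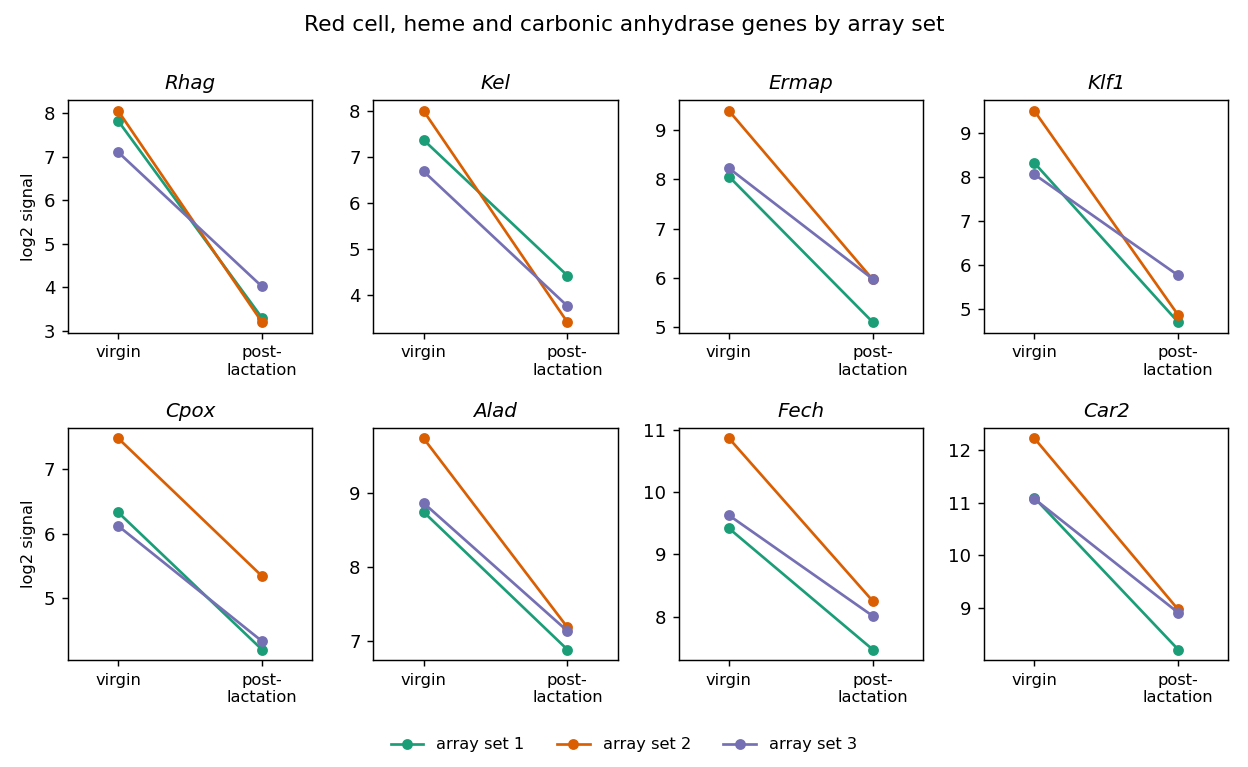
The log2 signal of 8 genes is plotted for the virgin and post-lactation array of each set, joined by a line, with 1 colour per array set and a separate vertical scale per gene. Every line slopes down, steepest for Rhag, Kel and Klf1 and less steep for Cpox, Alad and Fech.

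The starts of genes that fell were compared with the sequences that erythroid factors are known to bind. The windows come from RefSeq on GRCm38.p6 and run from 250 bases before to 50 after a transcript start. The 4 shown are those of Rhag at chr17:40810899-40811198 on the plus strand, Kel at chr6:41704276-41704575 on the minus strand, Ermap at chr4:119189946-119190245 on the minus strand and Cpox at chr16:58669958-58670257 on the plus strand. Cpox encodes an enzyme of heme synthesis. Each is written 5′ to 3′ along its gene, with matches to AGATAA or TGATAA, forms of the site bound by the GATA family, in capitals on either strand (TTATCT and TTATCA are the opposite strand):
Rhag: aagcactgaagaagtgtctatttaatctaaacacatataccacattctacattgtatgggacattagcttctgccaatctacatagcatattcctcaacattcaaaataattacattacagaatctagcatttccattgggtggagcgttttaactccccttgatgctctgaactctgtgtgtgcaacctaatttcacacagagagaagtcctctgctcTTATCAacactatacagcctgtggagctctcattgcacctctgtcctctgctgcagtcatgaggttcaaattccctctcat
Kel: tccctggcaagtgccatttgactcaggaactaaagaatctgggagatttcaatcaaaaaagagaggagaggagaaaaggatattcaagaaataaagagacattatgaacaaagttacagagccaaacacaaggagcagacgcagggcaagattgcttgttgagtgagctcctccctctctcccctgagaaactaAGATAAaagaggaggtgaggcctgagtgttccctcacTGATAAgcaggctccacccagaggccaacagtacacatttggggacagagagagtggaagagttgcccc
Ermap: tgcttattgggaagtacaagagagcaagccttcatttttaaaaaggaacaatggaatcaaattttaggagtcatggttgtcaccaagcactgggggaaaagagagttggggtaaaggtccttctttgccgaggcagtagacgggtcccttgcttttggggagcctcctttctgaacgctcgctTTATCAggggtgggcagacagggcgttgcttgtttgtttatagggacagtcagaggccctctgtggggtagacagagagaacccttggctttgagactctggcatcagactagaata
Cpox: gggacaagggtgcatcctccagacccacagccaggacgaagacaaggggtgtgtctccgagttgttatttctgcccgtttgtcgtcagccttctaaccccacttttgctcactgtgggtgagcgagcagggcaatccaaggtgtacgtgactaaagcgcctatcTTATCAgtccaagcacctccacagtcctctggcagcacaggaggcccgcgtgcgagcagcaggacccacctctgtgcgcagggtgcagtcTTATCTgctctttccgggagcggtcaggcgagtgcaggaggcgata
Rhag and Ermap each hold 1 TGATAA match, and Kel and Cpox hold 1 match of each form. Of the 35 genes that fell, 30 had a window, 36 windows in all. Either form was found in 11 of these 30 genes. The 4 shown were picked by hand and are all among those 11, so they do not stand for the rest. AGATAA was found in 19.4% of the 36 windows and in 11.2% of all 32851 windows, TGATAA in 19.4% and 9.05%, and either in 30.6% (11 windows) and 18.6%. CCACACCC, a form of the site of KLF1, was in 0 of the 36 windows and in 3.56% of all windows. These shares are descriptions of letters, and no binding was measured.

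The enzymes that make heme were lower together with the membrane genes. Cpox read 6.33, 7.48 and 6.12 in the virgin arrays, against 4.33 and 5.34 in post-lactation 2 and 3, and post-lactation 1 was lower still. The groups did not overlap (means 6.64 ± 0.73 and 4.62 ± 0.63, SD, n = 3), the set differences were -2.13, -2.13 and -1.80, and Cpox fell 4.05-fold (-2.02 ± 0.09) with an adjusted p of 0.00939, the smallest of all and shared with Tlcd4. Its 2 other probe sets differed by -1.32 and -0.55 and did not pass. Alad, which forms the first ring of the pathway, read 8.74, 9.73 and 8.86 against 6.89, 7.14 and 7.19, with no overlap, and fell 4.11-fold (adjusted p = 0.0372). Fech inserts the iron, and 3 of its 4 probe sets fell. The brightest read 9.42, 10.87 and 9.63 against 7.47, 8.01 and 8.25 (adjusted p = 0.0403). Urod, an intermediate step, fell 2.86-fold (adjusted p = 0.0402). Of 20 measured genes of heme and iron handling, 4 (20.0%) were called lower, against 0.192% of all genes. In all 3 sets 12 (60.0%) were lower, against 8.15% of all genes, and the list's median was -0.71. Alas2, the first enzyme of the pathway in red cells, had a larger difference, -3.49, with an adjusted p of 0.111.

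The transcription factors of the erythroid lineage were lower without passing the test. Klf1, the Krüppel-like factor that activates globin and red cell membrane genes, read 8.32, 9.50 and 8.06 in the virgin arrays and 4.71, 5.77 and 4.87 after weaning. The groups did not overlap, yet the difference of -3.51 ± 0.42 had an adjusted p of 0.0613. Tal1, a helix-loop-helix partner of GATA1, differed by -1.53 (adjusted p = 0.106). Gata1 itself read 7.04, 7.71 and 6.60 against 6.61, 5.06 and 5.88, with post-lactation 1 inside the virgin range (adjusted p = 0.293). Its differences within sets 1, 2 and 3 were -0.43, -1.83 and -1.54. Of the 13 genes of this list 10 were lower, 0 were called, and the median was -0.83. A second probe set of Sox6, which encodes a further erythroid factor, was called lower at -2.68, and its brighter probe set was not.

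The lactation arrays put these levels in context, though they share the virgin arrays and no gene passed in lactation against virgin (smallest adjusted p 0.0776, with 2788 probe sets at an unadjusted p under 0.05). Mean levels in virgin, lactation and post-lactation were 7.66, 8.97 and 3.51 for Rhag. They were 6.64, 7.78 and 4.62 for Cpox, and 8.63, 9.92 and 5.12 for Klf1. The list of red cell membrane genes had a median difference from virgin of 1.13 in lactation and -2.82 after weaning.

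Genes outside the red cell and heme lists fell too. Car2, the carbonic anhydrase that supplies acid in osteoclasts and is abundant in red cells, read 11.09, 12.22 and 11.07 in the virgin arrays and 8.21, 8.91 and 8.97 after weaning. No array overlapped, and Car2 fell 6.77-fold (-2.76 ± 0.20, adjusted p = 0.0372). The red cell lists were lower on the same arrays, and their part in the fall of Car2 was not tested. The solute carrier Slc38a5, a glutamine transporter, fell by at least 7.53-fold (adjusted p = 0.039), and Slc7a5, the large amino acid transporter of the plasma membrane, fell 1.75-fold (adjusted p = 0.0403). Tlcd4, a gene whose role is less clear, read 4.02, 4.21 and 3.83 against 1.98, 1.95 and 2.26 and fell by at least 1.03-fold (adjusted p = 0.00939), since all post-lactation arrays were dim. Its other probe sets, all dim, differed by -0.28, -0.03 and -0.14 and did not pass. Apol11b, of the apolipoprotein L family, fell 7.97-fold on its brighter probe set and by at least 7.19-fold on a second. Tspan8, a tetraspanin (at least 3.67-fold), and Nxpe2 (at least 3.63-fold) fell as well (adjusted p = 0.0403 for each). Other probe sets of Tspan8 differed by -0.58, -0.49, -0.07 and -0.09, and a dim one of Nxpe2 by 0.18, and none of them passed. Slbp, which binds histone messages during DNA replication, fell 1.70-fold (adjusted p = 0.0372), and Lig1, the replicative DNA ligase, fell 1.50-fold (adjusted p = 0.0464) with overlapping groups. Within sets 1, 2 and 3 Lig1 differed by -0.57, -0.61 and -0.58. Slbp and Lig1 were named after their values were seen.

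Genes of cell division had lower fitted means after weaning, without a call. All 39 measured had a negative difference, and 28 (71.8%) were lower in all 3 sets, against 8.15% of all genes. The median was -0.49 (-0.80, -0.47 and -0.26 in sets 1, 2 and 3, and -0.37 without virgin 1). Over the list the mean signal exceeded the array median by 4.41, 3.98 and 3.55 on virgin 1, 2 and 3 and by 3.63, 3.29 and 3.52 on post-lactation 1, 2 and 3, so that virgin 3 lay below post-lactation 1 and the groups overlapped. Cdc6, which licenses replication origins, read 8.07, 7.97 and 7.07 in the virgin arrays and 5.96, 5.84 and 6.63 after weaning. Every virgin array was higher than every post-lactation array, and the adjusted p of 0.0568 just missed. Ccne1, a cyclin of the start of S phase, differed by -0.94 (adjusted p = 0.0817). The red cell membrane list was lower as well, with medians of -2.66, -3.44 and -1.98 in sets 1, 2 and 3. Its fall was largest in set 2, where that of cell division was largest in set 1. The part of erythroid cells in the cell division list was not tested.

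**Figure D3:**
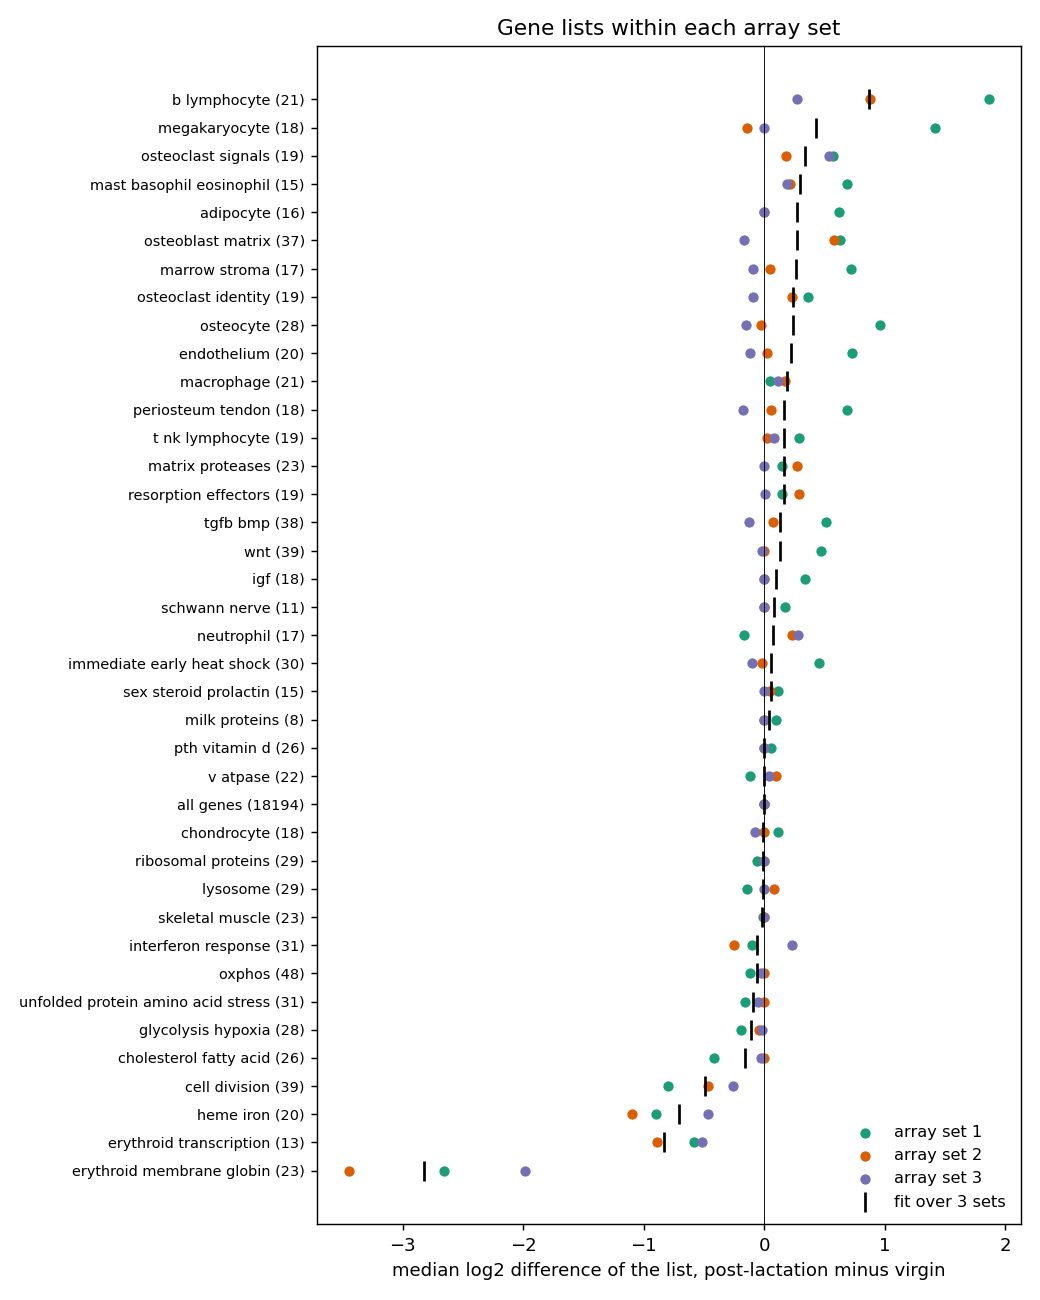
For each gene list the horizontal axis gives the median log2 difference of post-lactation minus virgin, within set 1, set 2 and set 3 as coloured points and over the fit as a bar, with the number of measured genes in brackets. The 4 lowest lists are red cell membrane, erythroid transcription, heme and iron, and cell division, and the highest is B lymphocyte, whose set 1 point lies at 1.86 and set 3 point at 0.27.

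Only 2 genes rose by the test. Cxcl3, a chemokine that attracts neutrophils, read 4.39, 5.01 and 4.71 in the virgin arrays and 5.88, 6.09 and 6.28 in the post-lactation arrays. All post-lactation arrays were higher than any virgin array, by 1.49, 1.27 and 1.39 in sets 1, 2 and 3, and Cxcl3 rose 2.61-fold (1.38 ± 0.09, adjusted p = 0.0369). Its lactation mean was 6.24, beside 4.70 in virgin and 6.09 after weaning. Dntt, the terminal transferase that adds bases at the joints of rearranging antibody genes, read 6.71, 8.32 and 7.49 against 8.60, 8.64 and 9.79. The groups did not overlap, with set differences of 1.88, 1.48 and 1.15, and Dntt rose 2.83-fold (1.50 ± 0.14, adjusted p = 0.0418). Its lactation mean was 7.41. Neither gene passed without virgin 1 (adjusted p = 0.15 for Cxcl3 and 0.171 for Dntt). Other large positive differences with 1 sign in all sets missed the threshold. Slc20a2, a phosphate transporter, read 6.20, 6.47 and 7.25 against 8.34, 8.04 and 8.28 with no overlap (1.58 ± 0.28, adjusted p = 0.197). Its dimmer probe set differed by 0.16. In Scd1, a fatty acid desaturase, the difference of 1.58 was made up of 3.63, 0.56 and 0.53 in sets 1, 2 and 3, and in Rspo2, a secreted enhancer of Wnt signals, 1.54 was made up of 2.92, 1.39 and 0.30. Niban3 (2.07), Pilrb1 (2.06) and Alox15 (1.49), a lipoxygenase, likewise had their largest difference in set 1. For Rspo2 the dimmer probe set went the other way, at -0.21. A dimmer probe set of Dpp4, a surface peptidase, rose by 0.83 (adjusted p = 0.0441), with overlapping groups, and its brighter one did not pass. Within sets 1, 2 and 3 the dimmer probe set differed by 1.00, 0.71 and 0.77.

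Genes of early B lymphocytes lay above the virgin level along with Dntt. Of 21 measured, 18 were higher, 15 (71.4%) in all 3 sets, against 5.91% of all genes and 7.1% of genes over the dim level, and 1 (4.76%) was called, against 0.011%. The median was 0.87. It came to 1.86 in set 1, 0.88 in set 2 and 0.27 in set 3, and to 0.55 without virgin 1. Over the 21 genes the mean signal exceeded the array median by 1.80, 2.85 and 2.70 on virgin 1, 2 and 3 and by 3.35, 3.02 and 3.58 on post-lactation 1, 2 and 3. The groups did not overlap, and virgin 1 was lowest. In sets 2 and 3 alone, 16 of the 21 genes (76.2%) were higher in both, against 12.9% of all genes. Vpreb1, part of the surrogate light chain of pre-B cells, read 7.26, 9.28 and 8.93 against 10.10, 9.63 and 10.89 and did not pass (adjusted p = 0.294). Rag1, which cuts antibody genes for rearrangement, read 4.42, 6.47 and 6.20 against 7.06, 7.07 and 7.78 (adjusted p = 0.249). Ms4a1, the surface protein CD20 (1.18), and Il7r, the interleukin 7 receptor (0.99), likewise did not overlap and did not pass, and were named after their values were seen. Rag2 was dim (-0.02) and Cd24a, a surface protein of young B cells and red cells, lay at -0.47.

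**Figure D4:**
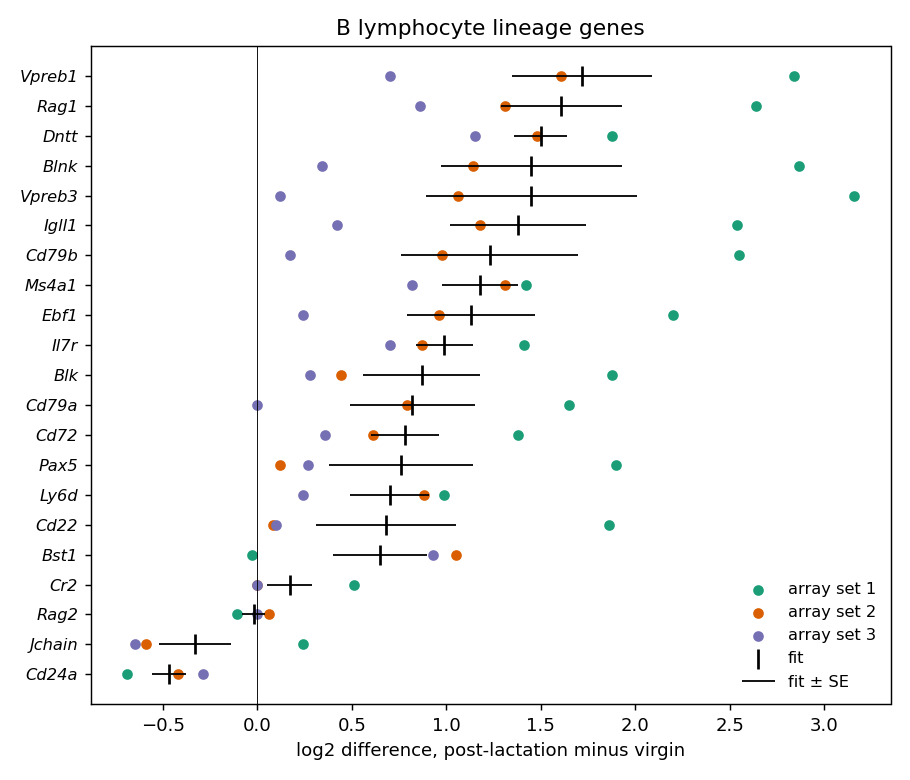
Each row is 1 of 21 genes of the B lymphocyte list, with the log2 difference of post-lactation minus virgin on the horizontal axis, coloured points for the 3 sets and a black bar with a line for the fit ± SE. Dntt has a narrow line at 1.50, and for most genes the set 1 point lies farthest right and the set 3 point nearest to 0.

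Signals to osteoclasts and inflammatory cells were higher as a list without a call. Of 19 genes 16 were higher, 8 (42.1%) in all 3 sets, against 5.91% of all genes. The median was 0.34, with 0.57, 0.18 and 0.54 in sets 1, 2 and 3. Tnfsf11, which encodes RANKL, the main signal for osteoclast formation, read 7.76, 7.46 and 7.24 in the virgin arrays and 8.08, 7.88 and 8.32 after weaning. The groups did not overlap, and the difference of 0.61 ± 0.24 did not pass (adjusted p = 0.777). Its second, dimmer probe set differed by 0.09, with -0.05, 0.45 and -0.12 in sets 1, 2 and 3. Tnfrsf11b, its decoy receptor, differed by -0.15 ± 0.50, with 1.03 in set 1 and -1.75 in set 3. Cxcl1, a chemokine for neutrophils, read 10.77, 10.46 and 9.92 against 11.17, 11.21 and 11.50 with no overlap (0.91 ± 0.34, adjusted p = 0.736). Il6 (0.82) and Ccl2 (1.13) had overlapping groups. Il6 differed by 0.60, 0.45 and 1.42 in sets 1, 2 and 3, and Ccl2 by -0.38 in set 1 and by 1.78 and 1.99 in sets 2 and 3.

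Most genes of resorption, which the series set out to study, had small fitted differences from virgin after weaning. Those given here other than Car2 changed sign between sets. Ctsk, the collagen-degrading protease of osteoclasts, read 9.83, 10.70 and 10.85 in the virgin arrays and 10.50, 10.74 and 11.69 in the post-lactation arrays. The ranges overlapped, and the difference of 0.52 ± 0.21 stands beside 1.83 in lactation against virgin. In sets 1, 2 and 3 Ctsk differed by 0.67, 0.99 and -0.11. Acp5, the phosphatase TRAP, differed by -0.02 ± 0.22 (1.74 in lactation), with -0.03, 0.49 and -0.52 in sets 1, 2 and 3. Atp6v0d2, a subunit of the proton pump, differed by 0.21 (1.64), and Slc9b2, a sodium-proton exchanger, by 0.19 (1.80). In sets 1, 2 and 3 Atp6v0d2 differed by 0.29, 0.85 and -0.52 and Slc9b2 by 0.13, 0.96 and -0.52. Mmp13, a collagenase, differed by -0.46 (0.88), with post-lactation 1 at 10.51 below every virgin array. Its set differences were -1.17, 0.07 and -0.29. These contrasts share the virgin arrays, and none of these genes passed in either. Of 19 resorption genes 1 (5.26%) was called, Car2, lower, against 0.192% of all genes called lower. The median of the list was 0.16, against 0.56 in lactation, and that of 22 proton pump subunits was 0.00.

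Osteocyte genes differed in sign between array sets, and virgin 1 was low. Sost, the inhibitor of Wnt signals made by osteocytes, read 8.14, 13.39 and 13.55 in the virgin arrays and 11.59, 12.90 and 13.00 after weaning. Virgin 1 lay far under all others, so that the set differences were 3.45, -0.39 and -0.66 and the fitted difference was 0.80 ± 1.00 (adjusted p = 0.829). Mepe, a phosphoglycoprotein of osteocytes, did the same, with 2.14, -0.44 and -0.20. Phex, which limits FGF23, differed by 0.40 ± 0.51. The median of 28 osteocyte genes was 0.24 with virgin 1 and -0.24 without it. Fgf23 was dim on 5 of the 6 arrays and read 4.46 in virgin 1.

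Genes of the bone matrix were mostly higher, again without a call. Of 37 measured, 32 were higher, 10 (27.0%) in all 3 sets, against 5.91% of all genes. The median was 0.27, with 0.63, 0.58 and -0.17 in sets 1, 2 and 3 and 0.11 without virgin 1. Col11a1, a chain of the fibril-forming type XI collagen, read 9.17, 9.84 and 9.76 in the virgin arrays and 10.19, 10.57 and 11.14 after weaning. All post-lactation arrays exceeded all virgin arrays, and the adjusted p of 0.0517 just missed (1.04 ± 0.11). Col1a1, the main collagen of bone, read 11.48, 11.89 and 11.48 against 11.85, 12.00 and 12.83, with post-lactation 1 under virgin 2 (0.61 ± 0.11, adjusted p = 0.211). Those arrays belong to different sets, and within sets 1, 2 and 3 Col1a1 differed by 0.37, 0.94 and 0.52. Sfrp2, a secreted Wnt modulator, read 5.14, 4.75 and 5.34 against 6.67, 6.20 and 6.27, without overlap (adjusted p = 0.103), while its lactation mean was 4.21. Alpl, the phosphatase of mineralization, differed by 0.42, 1.24 of it in set 1 and 0.19 and -0.17 in the others. Ibsp, bone sialoprotein, differed by -0.03 with sets of opposite sign, and Pth1r, the parathyroid hormone receptor, by 0.24 ± 0.38.

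**Figure D5:**
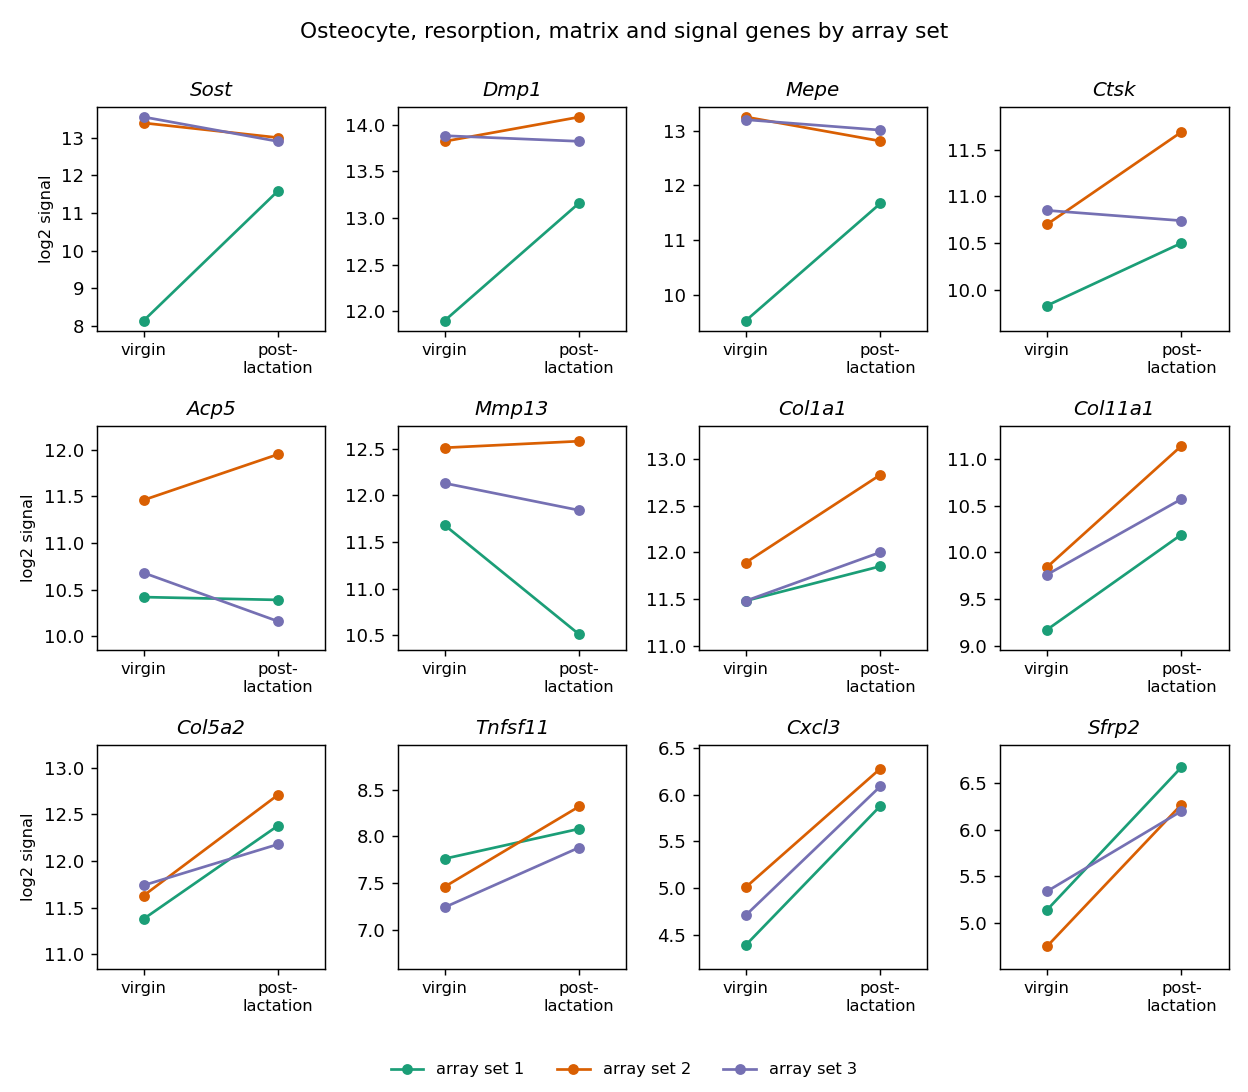
The log2 signal of 12 genes of osteocytes, resorption, matrix and signals is plotted for the virgin and post-lactation array of each set, joined by a line, with 1 colour per set and a separate vertical scale per gene. In Sost, Dmp1 and Mepe the set 1 line starts far lower than the others, Col11a1, Col5a2, Cxcl3, Tnfsf11 and Sfrp2 slope up in all 3 sets, and Acp5 and Mmp13 run in mixed directions.

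Lists of neutrophils, megakaryocytes and of mast cells, basophils and eosinophils had medians below that of the B lymphocyte list, and no member passed. Among 17 neutrophil genes the median was 0.07. Elane and Prtn3, proteases of young neutrophils, differed by -0.89 and -0.74, and Mmp8, a collagenase of mature neutrophils, by 0.67. In sets 1, 2 and 3 Elane differed by -1.48, -0.95 and -0.23. Prtn3 differed by -1.32, -0.95 and 0.03 and Mmp8 by -0.17, 0.67 and 1.51, so both changed sign between sets. Of 18 megakaryocyte genes the median was 0.43, made up of 1.42 in set 1, -0.14 in set 2 and 0.00 in set 3. Of 15 genes of mast cells, basophils and eosinophils 14 were higher, 8 (53.3%) in all 3 sets, against 5.91% of all genes. Their median was 0.30. Fcer1a, a chain of the IgE receptor, read 4.55, 5.09 and 4.34 against 5.78, 5.33 and 5.56 with no overlap (adjusted p = 0.181).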

How the data were processed

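RNA from the tibial shafts was measured on 9 arrays, 3 per group. The deposited values, log2 signals of 45101 probe sets, came from RMA according to the submitters' processing notes, and from GenePattern and Bioconductor according to the series' design text. Software versions, annotation and filters: not given in the sources used here. No value was missing and no log was taken again. Depth has no meaning for arrays, and their number limits the precision. Exactly tied values and array medians placed the arrays in 3 sets of 3 that appear to have been processed together, less surely for set 1. Ties were 2.5% to 2.72% of probe sets within set 1 and 36.1% to 44.1% within sets 2 and 3. They give 39% of genes in set 2 and 36.2% in set 3 a difference of exactly 0.

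Of the probe sets, 34958 named 1 gene, 932 several and 9211 none. Each of 18194 genes was represented by its brightest probe set. limma version 3.58.1 in R version 4.3.3 (lmFit and eBayes without trend, two-sided) fitted group and array set on all 9 arrays, with Benjamini-Hochberg adjustment over all probe sets. The script was tested on simulated data. Differences are fitted means with SE, and errors of means are SDs. A fold against a mean below the 40th percentile of probe set means (3.97) is a lower bound, computed against that level.

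The comparison, lists and rule for naming genes were chosen with earlier results of these data known, so no list is independent support. The rule named 17 fixed bone genes, up to 15 called genes per direction with 1 sign in all sets, and, in each list, up to 5 called members or the 3 largest differences. Where under 5 genes were called in a direction, it was filled to 10 with genes at an unadjusted p under 0.05. Other genes named were chosen after their values were seen. Of 989 list members written, 892 were found, 6 through a synonym. Lists are described by counts and medians, with no set test. Alternatives changed the block, the arrays, the eBayes options, the filter, the centring and the probe set of a gene.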

Additional observations from a re-analysis of the deposited data

How the results depend on the processing

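The count of 52 probe sets and 37 genes depended on the arrays and on the processing. The 37 genes kept their direction in every fit that tested them. They were called from these same arrays, with 1 sign in all 3 sets, which left little room for a reversal. The kept direction is therefore no further support. Leaving out 1 array gave 0 to 17 probe sets and 0 to 12 genes. Leaving out array set 1, 2 or 3 gave 0, 0 and 3 of each, and none of those 3 was among the 52 or the 37. The 6 arrays alone gave 0 of each. Without a block for the array set 28 probe sets and 20 genes passed, 10 of the genes among the 37. With the replicate number of the titles as a block 36 probe sets and 27 genes passed, 13 of the genes among the 37. Same-numbered arrays deviated from their group means with correlations of 0.5, -0.22 and -0.36, so the numbers do not pair the arrays. More passed with dim probe sets left out (104 and 73), with 1 probe set per gene (82 genes) and with each array centred on its median (98 and 70). With trend and robust eBayes 71 and 52 passed, including 34 of the 37 genes. The cause of the changed counts was not tested. Of 24 other probe sets of the called genes named, 22 had the same sign and 3 passed. Some differences that had not passed changed sign when 1 array or 1 set was left out. Leaving out 1 array gave -0.70 to 1.60 for Sost, -0.48 to 0.99 for Mepe, -0.35 to 0.83 for Phex and -0.28 to 0.62 for Pth1r, and leaving out set 1 gave -0.52, -0.32, -0.24 and -0.16 in that order. Leaving out 1 array gave -0.26 to 0.22 for Acp5 and -0.69 to 0.54 for Tnfrsf11b (without set 3, 0.23 and 0.65), and -0.05 to 0.49 for Atp6v0d2 and -0.11 to 0.53 for Slc9b2 (without set 2, -0.12 and -0.20). It gave -0.66 to 0.39 for Ibsp (0.27 without set 1 and 0.15 without set 3), -0.07 to 0.04 for Hba-a1 (0.03 without set 2) and -0.05 to 0.03 for Rag2 (0.03 without set 1). The cause was not tested.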
